A study of Mus musculus with 39 samples.

Results

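Genes of type 2 immunity and alternative macrophage activation were followed in AB1-HA mesothelioma tumours treated with tretinoin, immune checkpoint therapy (ICT) or both. The 9 genes were chosen by their symbols: the chemokines Ccl24 and Ccl11, the alternative activation genes Chil3, Retnla, Arg1 and Mrc1, the eosinophil genes Ear2 and Siglecf, and the receptor gene Il4ra. They were proposed with results of these tumours in view, so their fold changes and adjusted p-values describe these tumours and are not independent evidence for the genes. Retnla and Arg1 were not analysed here. The other 7 were found among the 39676 genes of the count table, of which 28827 had at least 1 count, and all 7 had counts in every tumour and passed the low-count filter in every comparison.

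AB1-HA is a mouse mesothelioma line that carries an influenza haemagglutinin gene, and it was grown under the skin of BALB/c mice, so each tumour holds cells of 1 line together with whatever host cells had entered it. RNA came from whole tumours resected on day 9: 10 were controls given PBS, 9 had received tretinoin, 10 ICT and 10 tretinoin+ICT. Per the labels, tretinoin (all-trans retinoic acid) was given as 5 doses of 5 mg/kg from day 4, and ICT was 100 ug of anti-CTLA-4 with 100 ug of anti-PD-L1 from day 7. The study's text and figure legends give other doses or numbers of doses for tretinoin, so the dose these tumours received is uncertain. The tretinoin+ICT tumours were divided into 6 from mice whose remaining tumour was cured (responders) and 4 from mice whose remaining tumour grew out (non-responders). Total counts per tumour lay between 14033046 and 37951183 with a median of 18548168. The labels number tumours and do not state that each came from a separate mouse, so p-values measure the spread between these tumours. The first digit of a tumour's name, called the name series here, takes 2 values in each treatment and no value in common between treatments, so series and treatment cannot be told apart.

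Type 2 immunity is the arm of the immune response used against helminths and in allergy. Its cytokines IL-4 and IL-13 act through receptors that share the chain encoded by Il4ra, and signal through STAT6 to switch macrophages to the alternatively activated state, long known for tissue repair and studied in tumours for its part in immune suppression. Such macrophages secrete the chemokine CCL24 and the chitinase-like protein Ym1, the product of Chil3. CCL24 and CCL11 (the eotaxins) draw eosinophils through the receptor CCR3. In whole tumour RNA a lower level can come from fewer cells of a type or from less RNA per cell, and these cannot be told apart here.

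The 7 genes differed widely in level. Per kilobase of exon, the median over all 39 tumours was 89.0 CPM (counts scaled to equal library size with TMM factors) for Mrc1, 35.9 for Ccl11, 35.3 for Il4ra, 6.49 for Ear2, 3.34 for Chil3, 2.52 for Ccl24 and 1.02 for Siglecf. Ccl11 and Il4ra lay side by side in that order and exchanged places between groups. In PBS tumours the Il4ra median was 27.3 CPM per kilobase and the Ccl11 median was 21.8. In tretinoin+ICT tumours Ccl11 had a median of 75.5 and Il4ra of 45.6. Chil3 had the lowest median of the 7 genes in PBS tumours, at 0.797 CPM per kilobase, and reached 22.9 in tretinoin+ICT tumours, close to Ear2 at 24.5. Genes also differed in how far apart the tumours lay: between the lowest and the highest of the 39 tumours there was a 426-fold range for Chil3, an 86.6-fold range for Ccl24, and only 2.78-fold and 2.62-fold ranges for Il4ra and Mrc1.

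**Figure D1:**
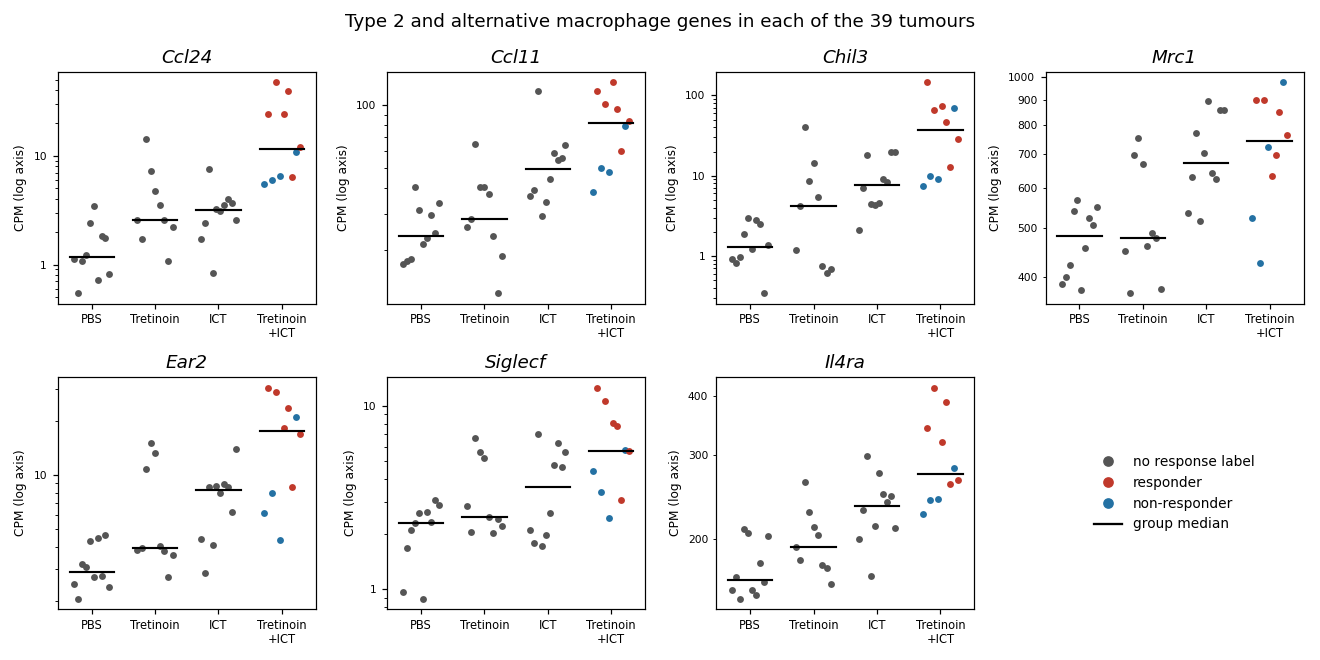
Level of each gene in every tumour, in CPM on a log axis, by treatment. Each point is 1 tumour, red for responders and blue for non-responders within tretinoin+ICT, and black lines are group medians. For all 7 genes the tretinoin+ICT median lay above the other 3 group medians.

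Each treatment step was accompanied by higher levels of part of the group. None of the 7 genes was called lower in the 4 comparisons of treatments that follow. In their order, 0.132%, 0.0636%, 0.0282% and 0.215% of all genes tested were called lower. At such shares, 0 of 7 does not set the group apart. A gene was called at an edgeR adjusted p below 0.05 with a log2 fold change of at least 1. After tretinoin alone, 3 of the 7 genes were called higher than in PBS tumours (Ccl24, Chil3 and Ear2), where 1.49% of the 14340 genes tested were called higher. After ICT alone, 4 were called (Chil3, Ear2, Ccl24 and Ccl11), against 2.28% of 14155 genes, and the other 3 had an adjusted p below 0.05 with smaller changes. By adjusted p alone, 1995 of the 14155 genes were higher after ICT. When tretinoin was added to ICT, Ccl24 and Chil3 were called, against 0.366% of 14202 genes. Setting tretinoin+ICT against tretinoin, 4 were called (Ccl24, Chil3, Ccl11 and Ear2), against 1.87% of 14393 genes. These comparisons share groups, namely PBS in the first pair and tretinoin+ICT in the second, so their values stand side by side and are not repeats of each other. The median log2 fold change of the 7 genes was 0.72, 1.06, 0.73 and 1.30 in the 4 comparisons in that order, where the median of all genes tested was 0.0079, -0.016, -0.0049 and -0.0044. In these 4 comparisons the ranges of the groups overlapped for every one of the 7 genes. Without PBS tumour 14 and tretinoin tumour 33, which had the highest Ptprc level of their groups, none of the 7 genes was called for tretinoin. In that fit 224 genes were called in all. Without PBS tumour 14 and ICT tumours 63 and 82, Chil3 and Ear2 were those of the 7 called for ICT, among 213 genes in all. Both fits were chosen after the values were seen. With no low-count filter the calls of Chil3 and Ear2 for tretinoin were lost (edgeR adjusted p=0.0503 and 0.0548), as were those of Chil3 for tretinoin+ICT against ICT (0.0894) and of Chil3 and Ear2 for tretinoin+ICT against tretinoin (0.0741 and 0.0799).

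**Figure D2:**
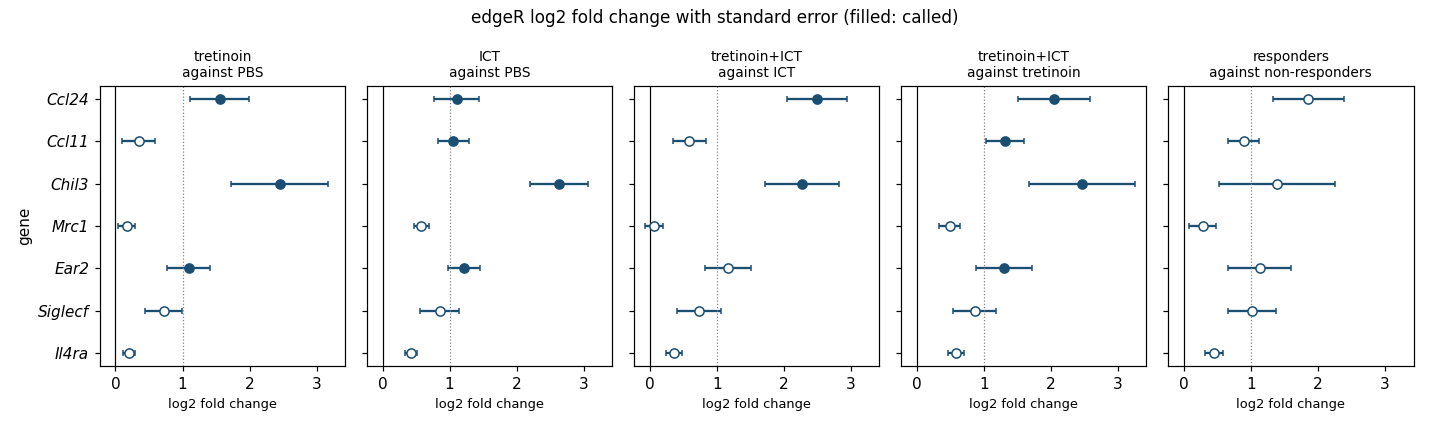
The edgeR log2 fold change of each gene (point) with its standard error (bar) in the 5 comparisons of groups. Filled points were called, at an adjusted p below 0.05 and a log2 fold change of at least 1 (dotted line). All values lay above 0, and Ccl24 and Chil3 were the genes called in all 4 comparisons of treatments.

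Ccl24 encodes the chemokine CCL24, or eotaxin-2, which attracts eosinophils (ENSMUSG00000004814.10, chromosome 5, 135569937 to 135573049 on GRCm38). Its lowest, median and highest levels were 0.544, 1.17 and 3.48 CPM in PBS tumours and 1.09, 2.57 and 14.1 CPM in tretinoin tumours. In ICT tumours they were 0.831, 3.18 and 7.48 CPM. In tretinoin+ICT tumours they were 5.49, 11.5 and 47.1 CPM. Every tretinoin+ICT tumour thus lay above every PBS tumour, and 6 of 10 lay above every ICT tumour. Ccl24 had the largest change of the 7 genes when tretinoin was added to ICT, with a log2 fold change of 2.49 (standard error, SE, 0.45, edgeR adjusted p=0.00308). It was called in that comparison in each of the 20 fits that left out 1 tumour, with log2 fold changes from 2.21 to 2.71. Against tretinoin alone, tretinoin+ICT gave a log2 fold change of 2.05 (SE 0.54, edgeR adjusted p=0.0144). The changes with a single treatment were smaller, 1.55 for tretinoin (SE 0.44, edgeR adjusted p=0.0189) and 1.10 for ICT (SE 0.34, edgeR adjusted p=0.0249). The call for ICT was lost without tumour 63, the highest of its group, where the log2 fold change was 0.88 (edgeR adjusted p=0.0571). It was also lost with all tumours in one fit (1.11, edgeR adjusted p=0.0938) and with no low-count filter (1.10, edgeR adjusted p=0.0519). Counts of Ccl24 were low in PBS tumours, down to 10 in a tumour, so counting error is part of the spread there.

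Ccl11 encodes eotaxin-1, the other eosinophil chemokine of the group (ENSMUSG00000020676.2, chromosome 11, 82057823 to 82062955). It was far more abundant than Ccl24, with lowest, median and highest levels of 17.2, 23.6 and 40.5 CPM in PBS tumours. In tretinoin tumours they were 12.5, 28.3 and 64.8 CPM, a spread that reached below and above the PBS range. The ICT tumours held 29.4, 49.3 and 117 CPM, and the tretinoin+ICT tumours 38.3, 81.7 and 128 CPM. The higher Ccl11 levels went with ICT: all 10 ICT tumours were above the PBS median, and all 10 tretinoin+ICT tumours were above the tretinoin median. The log2 fold change was 1.06 for ICT against PBS (SE 0.23, edgeR adjusted p=0.00481) and 1.31 for tretinoin+ICT against tretinoin (SE 0.28, edgeR adjusted p=0.00539). Without tumour 63 the first of these was 0.85 (edgeR adjusted p=0.00527), below the fold change minimum. With tretinoin the changes did not pass, at 0.34 against PBS (SE 0.25, edgeR adjusted p=0.341) and 0.59 when it was added to ICT (SE 0.25, edgeR adjusted p=0.230). In the 20 fits that left out 1 tumour, the change with tretinoin added to ICT ran from 0.50 to 0.80, under the fold change minimum. The edgeR adjusted p ran from 0.0398 to 0.390.

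Chil3 encodes Ym1, a secreted chitinase-like protein widely used as a marker of alternatively activated mouse macrophages (ENSMUSG00000040809.10, chromosome 3, 106147554 to 106167564, minus strand). The RefSeq promoter windows, 250 bases before to 50 after the annotated start on GRCm38.p6, were available for 5 of the 7 genes: Chil3, Mrc1, Siglecf, Il4ra and Ear2. Chil3 is shown because it had the widest range among the tumours, and Ear2 beside it as a second gene called with tretinoin and with ICT. Capitals in Chil3 mark, in order, a match to TTCNNNGAA, the palindrome with a spacing of 3 bases that STAT proteins can bind, and a TATAAA. Ear2 held neither of these, so none of its bases are in capitals.
Chil3, chr3:106167515-106167814, minus strand: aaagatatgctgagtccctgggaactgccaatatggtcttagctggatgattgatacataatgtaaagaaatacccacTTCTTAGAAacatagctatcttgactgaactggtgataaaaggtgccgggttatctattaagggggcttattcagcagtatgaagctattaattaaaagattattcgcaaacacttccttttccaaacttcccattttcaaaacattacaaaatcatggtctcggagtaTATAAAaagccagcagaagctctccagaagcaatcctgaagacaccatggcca
Ear2, chr14:44102404-44102703, plus strand: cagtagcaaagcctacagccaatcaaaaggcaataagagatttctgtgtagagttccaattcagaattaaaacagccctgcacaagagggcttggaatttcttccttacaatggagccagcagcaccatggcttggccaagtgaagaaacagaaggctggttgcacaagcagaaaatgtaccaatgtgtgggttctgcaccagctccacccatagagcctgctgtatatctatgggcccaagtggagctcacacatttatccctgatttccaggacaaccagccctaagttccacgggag
The first match in Chil3 began at position -172 and the second at -3 relative to the RefSeq start. Among all 32851 windows, 8.3% held TTCNNNGAA and 13.6% held TATAAA, read on both strands. The spacing of 4 bases that is best known for STAT6, TTC and GAA with any 4 bases between, and AGGTCA, the repeat unit of retinoid response elements, were found in 6.95% and 16.3% of all windows and in none of these 5. These matches are a description of the letters and say nothing of binding.

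Chil3 had lowest, median and highest levels of 0.342, 1.30 and 2.97 CPM in PBS tumours. Tretinoin tumours ran from 0.604 through a median of 4.17 to 40.4 CPM. In 5 of the 9 Chil3 was above every PBS tumour, and the other 4 lay below the PBS median. In ICT tumours the levels were 2.11, 7.69 and 19.8 CPM, with 9 of 10 above every PBS tumour. In tretinoin+ICT tumours they were 7.33, 37.4 and 146 CPM. The log2 fold changes were among the largest of the group, 2.45 for tretinoin (SE 0.73, edgeR adjusted p=0.0249) and 2.63 for ICT against PBS (SE 0.43, edgeR adjusted p=0.000777). Tretinoin+ICT was higher than ICT by 2.27 (SE 0.55, edgeR adjusted p=0.0326) and than tretinoin by 2.46 (SE 0.79, edgeR adjusted p=0.0353). The ICT call was kept in all 20 fits that left out a tumour, whereas that of tretinoin+ICT against ICT was lost in 12 of 20, with adjusted p up to 0.0750 without tumour 22. Against tretinoin it was lost in 11 of 19 such fits, and the call for tretinoin was lost without tumour 33, where the log2 fold change fell to 1.52 (edgeR adjusted p=0.0838). Chil3 counts also carry some uncertainty of origin. Of its 1581 stretches of 100 bases, the read length, 4.93% occur in another gene as well, 54 of them in Chil4 and 24 in Gm6522. Chil4 itself had between 0 and 81 counts in a tumour.

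Mrc1 encodes the mannose receptor CD206, an endocytic receptor of tissue and alternatively activated macrophages (ENSMUSG00000026712.3, chromosome 2, 14229392 to 14332057). Its levels were high in every group: lowest, median and highest were 377, 481 and 567 CPM in PBS tumours and 371, 479 and 756 CPM in tretinoin tumours. After ICT they were 516, 673 and 896 CPM, and after tretinoin+ICT 425, 744 and 973 CPM. Mrc1 was higher in the groups given ICT, and a change with tretinoin was not detectable. The log2 fold change was 0.58 for ICT against PBS (SE 0.11, edgeR adjusted p=0.00186) and 0.49 for tretinoin+ICT against tretinoin (SE 0.16, edgeR adjusted p=0.0350), both under the fold change minimum. For tretinoin against PBS it was 0.17 (SE 0.13, edgeR adjusted p=0.383), and for tretinoin added to ICT 0.07 (SE 0.14, edgeR adjusted p=0.801). Of the general macrophage genes, 8 of 8 tested (among them Csf1r, Cd68 and the C1q genes) had an adjusted p below 0.05 for ICT against PBS, with a median log2 fold change of 0.60, and 5 of 8 did for tretinoin against PBS, with a median of 0.47. Among all genes tested, 1995 of 14155 and 1645 of 14340 were higher by adjusted p alone in these comparisons. Over the 39 tumours the Spearman correlation of Mrc1 was 0.636 with Csf1r and 0.532 with Cd68, and with treatment means taken off 0.312 and 0.0322. The summed level of the macrophage genes ran from 2002 to 3351 CPM in PBS tumours, from 2350 to 4960 in tretinoin tumours, from 2131 to 5015 in ICT tumours and from 2996 to 4869 in tretinoin+ICT tumours, and their part in the result was not tested.

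Ear2 encodes an eosinophil-associated ribonuclease of the RNase A family (ENSMUSG00000072596.4, chromosome 14, 44102654 to 44103534). Lowest, median and highest levels were 2.07, 2.92 and 4.67 CPM in PBS tumours and 2.72, 3.97 and 15.1 CPM in tretinoin tumours. The tretinoin tumours fell into 3 at 10.8 CPM or above, all from the same name series, and 6 at 4.03 CPM or below, inside the PBS range. ICT tumours ran from 2.88 through 8.28 to 13.98 CPM, and tretinoin+ICT tumours from 4.36 through 17.6 to 30.6 CPM. The log2 fold change was 1.09 for tretinoin (SE 0.32, edgeR adjusted p=0.0225) and 1.22 for ICT against PBS (SE 0.23, edgeR adjusted p=0.00243). Leaving out any 1 of tretinoin tumours 33, 34 and 35 brought the first of these under the fold change minimum, to 0.98, 0.86 and 0.91. For tretinoin+ICT it was 1.30 against tretinoin (SE 0.42, edgeR adjusted p=0.0350), a call lost in 10 of the 19 fits that left out a tumour, and 1.17 against ICT (SE 0.34, edgeR adjusted p=0.0850). This last difference passed when tumour 21 or tumour 25 was left out, with DESeq2 (adjusted p=0.0152) and with all tumours in one edgeR fit (adjusted p=0.0352). Of the 620 stretches of 100 bases in Ear2, 13.9% are shared, all of them with Ear10, so part of these counts could belong to that copy.

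Siglecf encodes Siglec-F, a sialic acid receptor on eosinophils and some macrophages (ENSMUSG00000039013.16, chromosome 7, 43351341 to 43359531). It had the lowest median per kilobase of the 7 genes over all tumours. Its lowest, median and highest levels were 0.892, 2.31 and 3.07 CPM in PBS tumours and 2.02, 2.49 and 6.70 CPM in tretinoin tumours. In ICT tumours they were 1.73, 3.63 and 7.00 CPM and in tretinoin+ICT tumours 2.44, 5.68 and 12.6 CPM. The overlap between groups was wide, and Siglecf was called in none of the 4 comparisons of treatments. The log2 fold change was 0.72 for tretinoin (SE 0.27, edgeR adjusted p=0.0672) and 0.85 for ICT against PBS (SE 0.29, edgeR adjusted p=0.0443). Tretinoin+ICT differed by 0.73 from ICT (SE 0.33, edgeR adjusted p=0.250) and by 0.87 from tretinoin (SE 0.32, edgeR adjusted p=0.0576).

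Il4ra encodes the alpha chain shared by the receptors for IL-4 and IL-13 (ENSMUSG00000030748.9, chromosome 7, 125552120 to 125579474). Levels varied little: lowest, median and highest were 150, 164 and 210 CPM in PBS tumours and 160, 192 and 263 CPM in tretinoin tumours. ICT tumours held 167, 234 and 299 CPM, and tretinoin+ICT tumours 226, 274 and 416 CPM. All tretinoin+ICT tumours lay above all PBS tumours. For ICT against PBS the log2 fold change was 0.43 (SE 0.09, edgeR adjusted p=0.00446), and for tretinoin+ICT against tretinoin it was 0.59 (SE 0.12, edgeR adjusted p=0.00329). With tretinoin it was 0.20 against PBS (SE 0.09, edgeR adjusted p=0.107) and 0.36 when added to ICT (SE 0.12, edgeR adjusted p=0.127). Reads from 7.49% of the 6301 stretches of Il4ra lie opposite Gm44876, and the strand mode of the counting is not given in the sources used here.

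Tumours that were high for a gene of the group tended to be high for the others. Over the 39 tumours, the Spearman correlation between pairs of the 7 genes lay between 0.66 (Ccl24 with Mrc1) and 0.946 (Ccl11 with Il4ra). With the mean of each treatment taken off it lay between 0.521 (Ccl24 with Mrc1) and 0.845 (Ccl11 with Il4ra). Each point is 1 library, so the genes share its cell content and depth, and the correlations are given as a description. Among ICT tumours, tumour 63 was the highest for 4 of the 7 genes (Ccl24, Ccl11, Siglecf and Il4ra), and tumour 64 the lowest for 5. All 7 genes were above every PBS tumour in 7 of 10 tretinoin+ICT tumours, in 4 of 10 ICT tumours and in 1 of 9 tretinoin tumours. How many of all genes lay above every PBS tumour in these tumours was not counted.

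**Figure D3:**
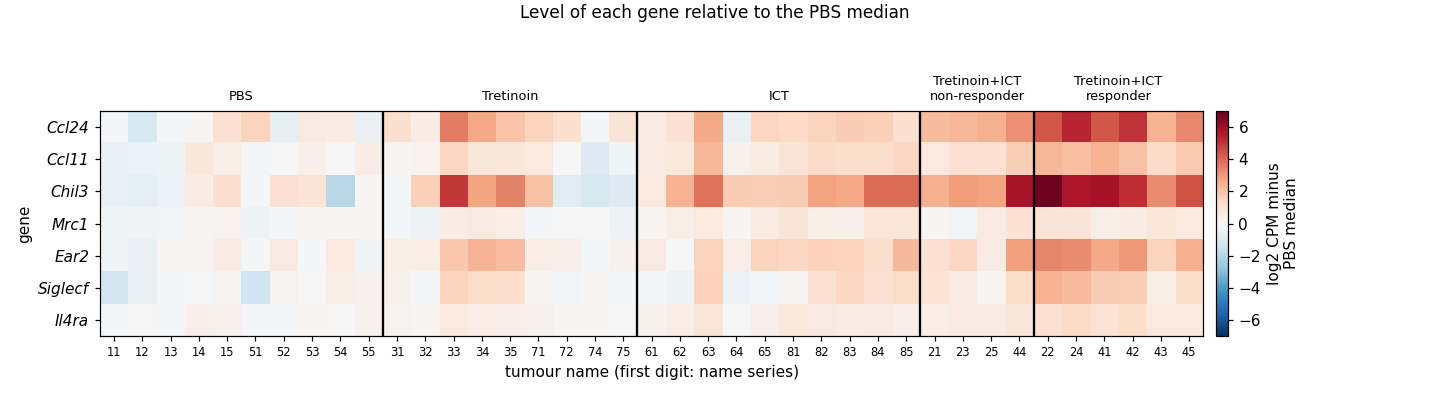
Each column is a tumour and each row a gene, coloured by its log2 CPM minus the median log2 CPM of the PBS tumours, red above and blue below. Tumours 33, 34 and 35 stand out among tretinoin tumours, and tumour 44 among non-responders.

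The tretinoin tumours were split by name series. In series 3 (tumours 31 to 35), Ccl24 had a median of 4.75 CPM, against 2.39 CPM in series 7 (tumours 71, 72, 74 and 75). For Chil3 the medians were 8.67 and 0.726 CPM, and for Ear2 10.8 and 3.69 CPM. Tumours 33, 34 and 35 held 7, 6 and 6 of the 7 genes above every PBS tumour, and the other 6 tretinoin tumours held between 0 and 2. Here too the share of all genes was not counted. Fitted against all PBS tumours, series 3 alone had 4 of the 7 genes called (Ccl24, Chil3, Ear2 and Siglecf), with 393 genes called in all. Series 7 alone had none of the 7, with 115 genes called in all. The log2 fold changes of series 7 were 0.64 for Ccl24 (edgeR adjusted p=0.362), 0.28 for Chil3 (edgeR adjusted p=0.819) and 0.14 for Ear2 (edgeR adjusted p=0.722). These fits too were chosen after the values were seen. Between any tretinoin series and any PBS series, the log2 ratio of mean CPM ranged from 0.45 to 2.25 for Ccl24, from 0.20 to 3.19 for Chil3 and from 0.05 to 1.63 for Ear2. For ICT the corresponding ranges were narrower, from 0.87 to 1.39 for Ccl24, from 2.14 to 3.02 for Chil3 and from 0.75 to 1.59 for Ear2. Levels of leukocyte and macrophage transcripts differed among the 3 high tretinoin tumours. Tumour 33 had the highest Ptprc of its group (411 CPM, encoding the leukocyte antigen CD45) and the highest sum of macrophage genes (4960 CPM). Tumour 35 was itself the median of the group for both, with 252 CPM and 2870 CPM, and tumour 34 lay just above it with 258 CPM and 2891 CPM. Tumour 71, with 349 CPM and 3328 CPM, held 2 of the 7 genes above every PBS tumour. The part of leukocyte content in these levels was not tested.

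Within the tretinoin+ICT group, the question was whether tumours of mice that were later cured already differed on day 9. All 7 genes had a higher mean in the 6 responders than in the 4 non-responders, with a median log2 fold change of 1.01, where the median of all genes tested was 0.010. The share of all genes with a higher mean in responders was not counted. The 7 genes tended to be high together, so they are not separate observations. None of the 7 was called, and 0% of the 14604 genes tested were. With edgeR 3302 of these genes had an unadjusted p below 0.05, and DESeq2 called 120 genes, Ccl24 and Siglecf among them. Ccl24 lay between 6.41 and 47.1 CPM in responders, with a median of 24.2. In non-responders it was 5.49, 5.93, 6.52 and 10.8 CPM. For Ccl24 5 of 6 responders were above all non-responders, and responder tumour 43, at 6.41 CPM, lay among them. The log2 fold change was 1.85 (SE 0.53, edgeR adjusted p=0.0982, DESeq2 adjusted p=0.0121).

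Ccl11 in responders ran from 60.0 to 128 CPM with a median of 98.5, and in non-responders it was 38.3, 47.5, 49.6 and 79.2 CPM. Here too 5 of 6 responders were above all non-responders (log2 fold change 0.89, SE 0.24, edgeR adjusted p=0.0907). Chil3 separated the groups less. Its levels were 12.9 to 146 CPM in responders, with a median of 55.9, and 7.33, 9.08, 10.0 and 70.3 CPM in non-responders. The log2 fold change of 1.38 (SE 0.86, edgeR adjusted p=0.375) became 2.83 without non-responder tumour 44 (edgeR adjusted p=0.168). Mrc1 differed least, by 0.28 (SE 0.20, edgeR adjusted p=0.432), and its highest level of all 39 tumours, 973 CPM, was that of tumour 44.

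For Ear2 the responders ran from 8.65 to 30.6 CPM with a median of 20.96, and the non-responders were at 4.36, 6.16, 7.96 and 20.9 CPM (log2 fold change 1.13, SE 0.47, edgeR adjusted p=0.194). Siglecf ran from 3.08 to 12.6 CPM in responders with a median of 7.89, and stood at 2.44, 3.40, 4.42 and 5.71 CPM in non-responders. Its log2 fold change was 1.01 (SE 0.36, edgeR adjusted p=0.131, DESeq2 adjusted p=0.0352). Il4ra was at 261 to 416 CPM in responders with a median of 331, and at 226, 241, 242 and 281 CPM in non-responders (log2 fold change 0.45, SE 0.14, edgeR adjusted p=0.0999). For each of these genes the overlap came from the same few tumours. Tumour 43 was the lowest responder for 6 of the 7 genes, all but Mrc1, and tumour 44 was the highest non-responder for all 7. Without tumour 43, Ccl24 and Siglecf were called (log2 fold changes 2.03 and 1.15, edgeR adjusted p=0.0179 and 0.0256), and 205 genes were called in all.

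The response labels are spread unevenly over the name series, with 2 responders and 3 non-responders in series 2, and 4 responders and 1 non-responder, tumour 44, in series 4. In series 2 both responders were above all 3 non-responders for each of the 7 genes, with log2 ratios of mean CPM from 0.68 for Il4ra and 0.68 for Mrc1 to 3.58 for Chil3. The share of all genes that separated these tumours in the same way was not counted, and the 7 genes tended to be high together. This count therefore does not set the 7 genes apart from others. In series 4 the ratio over the single non-responder was 0.92 for Ccl24, 0.22 for Ccl11, 0.14 for Il4ra and 0.10 for Siglecf, and it was -0.31 for Ear2, -0.40 for Mrc1 and -0.81 for Chil3. With name series as a block in the edgeR fit no gene of the group was called, as in the fit without it. The summed level of the 8 general macrophage genes ran from 3695 to 4869 CPM in responders and from 2996 to 3722 CPM in non-responders, and Ptprc from 342 to 581 CPM and from 261 to 462 CPM. Their part in the differences of the 7 genes was not tested.

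**Figure D4:**
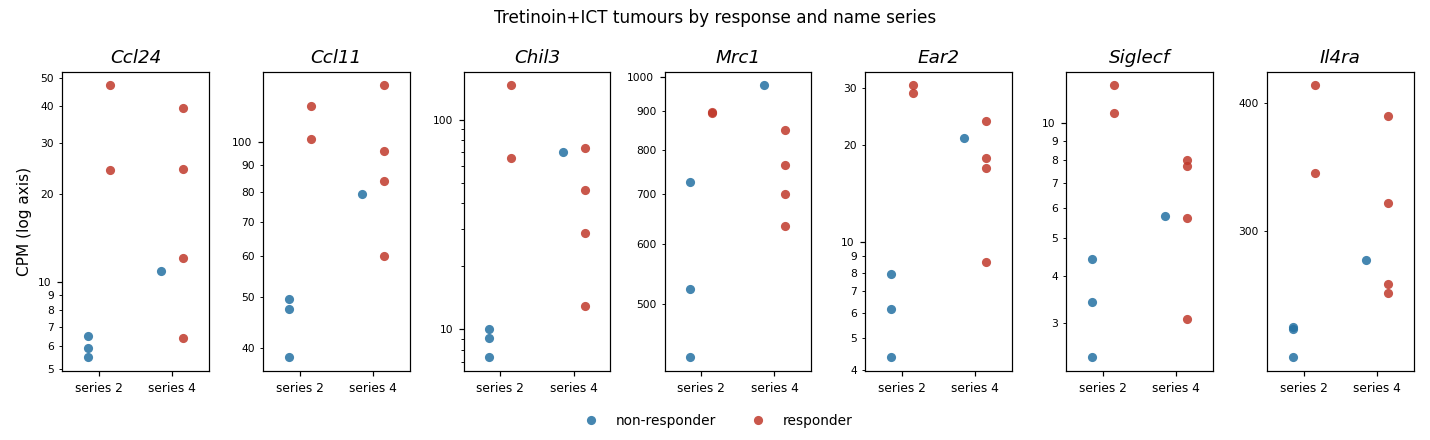
Levels of the 7 genes in the 10 tretinoin+ICT tumours, in CPM on a log axis, by name series and response. Each point is 1 tumour. In series 2 the 2 responders (red) lay above the 3 non-responders (blue) for every gene, and in series 4 the single non-responder lay within or above the range of the 4 responders.

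Whether the change with tretinoin differed with and without ICT was tested as an interaction over all 39 tumours. None of the 7 genes passed an edgeR adjusted p of 0.05, which 0.307% of the 14977 genes tested did. The interaction was 0.93 on the log2 scale for Ccl24 (SE 0.64, edgeR adjusted p=0.673) and -0.17 for Chil3 (SE 0.88, edgeR adjusted p=0.971). For Ccl11 it was 0.25 (SE 0.37, edgeR adjusted p=0.872), and for the other 4 it lay between -0.10 and 0.16, with adjusted p of 0.789 or more. A p that misses the threshold does not show that the change with tretinoin was the same with and without ICT, and the standard errors of Chil3 and Ccl24 were wide.

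Of the type 2 cytokines and alarmins, 5 of 8 were found (Il4, Il13, Il5, Il33 and Csf2), and Il4, Il13 and Il5 were far lower than the alarmin gene Il33. Il33, which encodes a cytokine released by damaged tissue cells, had medians of 39.2, 39.4, 53.5 and 84.1 CPM in PBS, tretinoin, ICT and tretinoin+ICT tumours. It had an adjusted p below 0.05, under the fold change minimum, for ICT against PBS (log2 fold change 0.66, edgeR adjusted p=0.00978) and for tretinoin+ICT against tretinoin (0.85, edgeR adjusted p=0.00743). Il4, the cytokine that defines type 2 helper cells, had medians of 3.30, 3.98, 3.37 and 3.61 CPM in PBS, tretinoin, ICT and tretinoin+ICT tumours. Its log2 fold change was 0.26 for tretinoin (edgeR adjusted p=0.0494) and -0.01 for ICT against PBS (edgeR adjusted p=0.985). Il13 was lower still and less even, with medians of 0.155, 0.321, 0.718 and 1.68 CPM and between 0 and 118 counts in a tumour. Il13 was called in tretinoin+ICT against tretinoin (log2 fold change 2.31, SE 0.59, edgeR adjusted p=0.0126). There 2 of the 4 genes tested in this list were called higher, Il13 and Csf2, where 1.87% of all genes were. Csf2 had medians of 0.234, 0.757, 1.12 and 2.70 CPM in PBS, tretinoin, ICT and tretinoin+ICT tumours. Its medians were 3.75 CPM in responders and 1.56 CPM in non-responders. In responders Il13 lay between 1.22 and 5.65 CPM and in non-responders between 0.658 and 1.22 CPM, so that every responder was above every non-responder, the closest pair by a margin within counting error (19 and 23 counts). Its log2 fold change between them was 2.28 (SE 0.45, edgeR adjusted p=0.0841). Over the 39 tumours the Spearman correlation with Il13 was 0.951 for Il4ra, 0.898 for Ccl11 and 0.854 for Chil3, whereas with Il4 it was 0.233, 0.201 and 0.203. With treatment means taken off, the values with Il13 were 0.871, 0.768 and 0.636, and those with Il4 were 0.448, 0.336 and 0.326. High values were not particular to Il13: with Nos2, a gene of classical activation, they were 0.878, 0.835 and 0.738, and with the macrophage gene Csf1r 0.844, 0.803 and 0.686. With treatment means taken off, these were 0.734, 0.66 and 0.5 for Nos2 and 0.661, 0.572 and 0.375 for Csf1r. These too are descriptions over libraries that share cell content and depth. Il5, a growth factor of eosinophils, had at most 42 counts in a tumour and passed the low-count filter in no comparison of 2 treatments. Between responders and non-responders it did not pass the test (log2 fold change 1.61, SE 0.51, edgeR adjusted p=0.106). Of the IL-4 and IL-13 receptor signalling list, 10 of 12 genes were found and tested. Stat6, which encodes the transcription factor downstream of the receptor, changed by 0.15 for tretinoin (edgeR adjusted p=0.0225) and 0.21 for ICT against PBS (edgeR adjusted p=0.00531). Il13ra2, which encodes the decoy receptor for IL-13, and Cish, a cytokine-inducible signalling inhibitor, were called after ICT, with log2 fold changes of 1.44 (edgeR adjusted p=0.00400) and 1.34 (edgeR adjusted p=0.00140). For ICT against PBS, 2.28% of all genes tested were called higher. In tretinoin+ICT against tretinoin 2 of the 10 were called higher, where 1.87% of all genes were. None of the 10 was called for tretinoin alone or for tretinoin added to ICT, where 1.49% and 0.366% of all genes were called higher. By adjusted p alone, 8 of the 10 were higher for ICT and 5 for tretinoin against PBS. Among all genes, 1995 of 14155 and 1645 of 14340 were.

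Of the transcripts of eosinophil granules, Epx and Prg3 were nearly absent and Prg2 was low. Epx, which encodes eosinophil peroxidase, had no count in any of the 10 PBS tumours and at most 9 counts in any tumour. Prg3, a granule protein gene, had at most 6 counts, and Prg2, which encodes major basic protein, had at most 50. The Prg2 medians were 0.202, 0.636, 0.330 and 1.23 CPM in PBS, tretinoin, ICT and tretinoin+ICT tumours. Per kilobase of exon, its tretinoin+ICT median was 1.47 CPM, where that of Siglecf was 2.04. In 7 of 10 tretinoin+ICT tumours Prg2 was above every ICT tumour, a comparison in which it did not pass the low-count filter. Its difference between tretinoin+ICT and tretinoin did not pass the test (log2 fold change 0.90, SE 0.43, edgeR adjusted p=0.129). Ccr3, which encodes the receptor for both eotaxins, had medians of 5.31, 6.57, 5.51 and 8.90 CPM in PBS, tretinoin, ICT and tretinoin+ICT tumours, with log2 fold changes of 0.29, 0.01, 0.80 and 0.53 in the 4 comparisons of treatments, none of which passed (edgeR adjusted p=0.345, 0.980, 0.121 and 0.179). Of the 10 eosinophil genes found other than the 2 of the group, only 5 were tested in tretinoin+ICT against tretinoin. Of these 5, 2 were called higher, where 1.87% of all genes tested were. They were Alox15, a lipoxygenase gene also expressed in resident macrophages (log2 fold change 1.34, edgeR adjusted p=0.0176), and Ear10, the copy of Ear2 (log2 fold change 1.36, edgeR adjusted p=0.0280). For tretinoin and for ICT against PBS 3 were tested, for tretinoin added to ICT 4, and none was called. Over all genes, 1.49%, 2.28% and 0.366% were called higher in these comparisons, so with so few tested the counts of 0 lie near those shares. Ear1 and Ear6 had at most 6 and 16 counts in a tumour. Whether Ear2 and Siglecf came from eosinophils or from other cells was not tested.

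**Figure D5:**
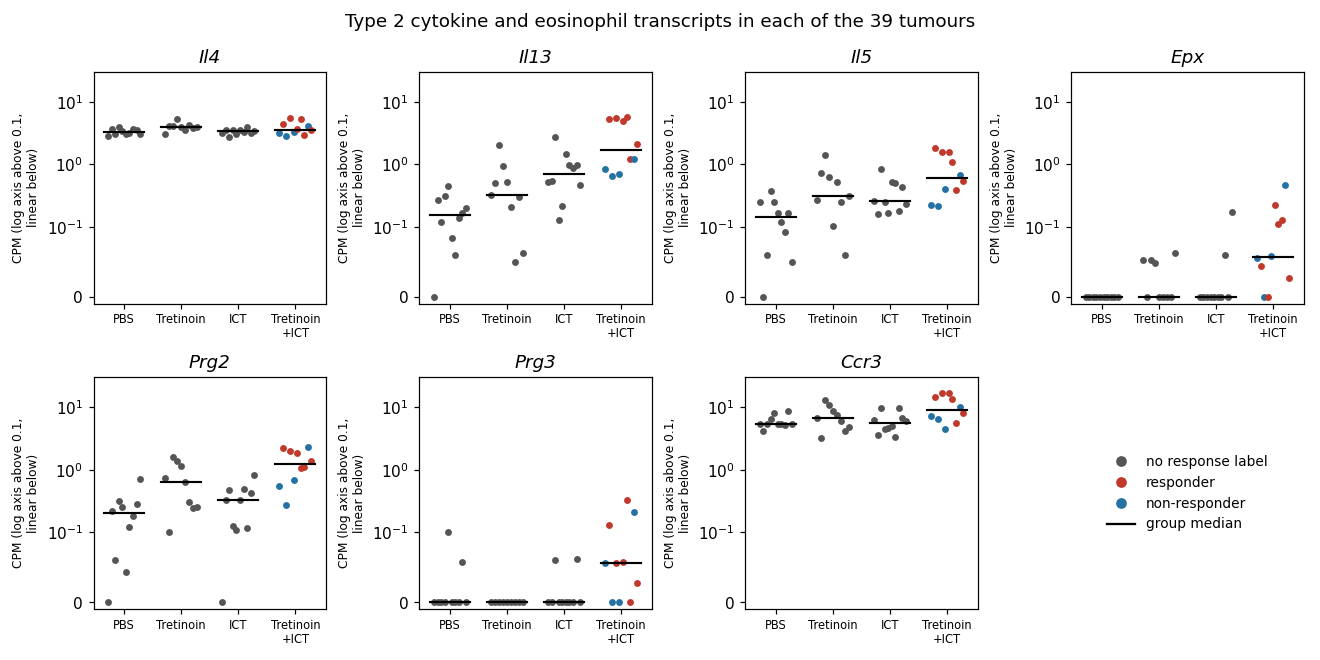
Levels of type 2 cytokine genes (Il4, Il13, Il5), eosinophil granule genes (Epx, Prg2, Prg3) and the eotaxin receptor gene Ccr3 in every tumour, in CPM, by treatment. The axis is logarithmic above 0.1 CPM and linear below. Il4 medians lay between 3.30 and 3.98 CPM, Il13 had its highest median, 1.68 CPM, in tretinoin+ICT tumours, and Epx and Prg3 stood at or near 0 in most tumours.

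Other genes of alternative activation were read from a list of 23, of which 21 were found and 20 were tested between treatments. Of these 20, 5 were called higher for tretinoin, 7 for ICT, 2 for tretinoin added to ICT and 6 for tretinoin+ICT against tretinoin, and none was called lower. Over all genes tested, 1.49%, 2.28%, 0.366% and 1.87% were called higher in these comparisons. Those called lower were 0.132%, 0.0636%, 0.0282% and 0.215%. Tgm2, which encodes transglutaminase 2 and is also a known retinoid target, was called in both comparisons that added tretinoin, with log2 fold changes of 1.97 (edgeR adjusted p=1.96e-06) and 1.44 (edgeR adjusted p=0.000284), and its groups did not overlap in either. Irf4, a transcription factor gene of alternative activation, was called for tretinoin (log2 fold change 1.01, edgeR adjusted p=0.000264). Ccl17, a chemokine gene for CCR4-bearing T cells, was called for tretinoin (1.59), for ICT (2.26) and for tretinoin+ICT against tretinoin (1.86), with adjusted p of 0.00352, 0.000113 and 0.00594. The lectin gene Mgl2 followed with 1.001, 1.53 and 1.63 (adjusted p=0.0261, 0.000226 and 0.0112), and Pdcd1lg2, which encodes PD-L2, with 2.01, 3.18 and 2.01 (adjusted p=0.0332, 0.00133 and 0.0408). Egr2 was the only gene besides Tgm2 called when tretinoin was added to ICT (log2 fold change 1.02, edgeR adjusted p=0.0272). None of the 21 was called between responders and non-responders, where 0% of all genes tested were.

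The genes whose levels were most like those of each of the 7 were sought among 14958 genes by Spearman correlation over the 39 tumours. For Ccl24 they were Ccl6, Srgn and Cd24a (0.924, 0.914 and 0.908), and for Ccl11 they were Slc7a2, Tarm1 and Car4 (0.971, 0.958 and 0.953). For Chil3 they were Mt1, Ccl11 and Slc7a2 (0.934, 0.933 and 0.923). Mrc1 was most like Maf, Ms4a4a and Fchsd2 (0.900, 0.888 and 0.885). Ear2 came with Ear10, Ccl22 and F7 (0.911, 0.904 and 0.903), and Siglecf with Alox15, Siglecg and Acss1 (0.915, 0.913 and 0.878). Il4ra was most like Gpr146, Lamp1 and Tarm1 (0.968, 0.968 and 0.964). With treatment means taken off, Siglecf kept Alox15, Siglecg and Acss1 as its closest genes (0.920, 0.914 and 0.867), while Ccl24 was closest to F10, F7 and Ccl6 (0.888, 0.867 and 0.865) and Chil3 to Ccl11, F7 and Alkbh5 (0.844, 0.817 and 0.815).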

How the data were processed

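RNA-seq counts of 39 AB1-HA tumours were used. The authors sequenced 100 base single-end reads on a NovaSeq instrument, aligned them with HISAT2 (version 2.0.4 per the submitters' processing notes) to a genome called mm11 in their methods, and summarised them per gene with SummariseOverlaps. The deposited values are these counts, whole and not normalized. Strand mode and the treatment of reads that align to several places are not given in the sources used here. Total counts lay between 14033046 and 37951183 per tumour.

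Here, edgeR 4.0.16 in R 4.3.3 was run on the tumours of each pair of groups alone (TMM normalization, filterByExpr, robust quasi-likelihood test). Calls needed an adjusted p (Benjamini-Hochberg, over all genes tested) below 0.05 and a log2 fold change of 1 or more in size. All tests are two-sided. The interaction was fitted on all 39 tumours. Standard errors were taken as the size of the log2 fold change over the root of its F value. Levels are CPM with TMM library sizes over all tumours, and correlations used log2 CPM with a prior count of 2. The fits were tested on simulated data. The genes followed here and the lists were chosen with earlier results of these data known. Other genes were named by rule: up to 6 called genes per comparison with the smallest adjusted p in the lists, a fixed set of cytokine, eosinophil and leukocyte genes, near-identical copies, and the 3 genes most like each gene. Cd68, the C1q genes, Alox15, Il13ra2, Il33, Prg3 and Adipoq are named beyond it, chosen after their values were seen. Coordinates and exon lengths are those of GENCODE M21 on GRCm38, which holds 36719 of the 39676 identifiers (92.55%), and promoters are from RefSeq on GRCm38.p6. Alternatives were DESeq2 1.42.0, its size factors in edgeR, other low-count filters, no fold change minimum, a single fit of all tumours, name series as a block, and leaving out each tumour in turn. Splits by tretinoin series and the removal of tumours 14, 33, 63 and 82 were chosen after seeing the data.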

Additional observations from a re-analysis of the deposited data

Results flagged for a closer look

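Chil3 among the non-responders was picked out because 1 tumour lay far from the others: tumour 44 had 70.3 CPM and the next highest non-responder 10.0 CPM. Taken on log2 CPM, this gap was 0.862 of the range of the 4 tumours. Chance gives such a gap in about 1 of 20 groups, and 42 groups of gene and samples were examined. Tumour 44 was the highest non-responder for all 7 genes and the only non-responder of its name series, so its series and its response cannot be told apart from what sets it off. Its Ptprc level, 261 CPM, was the lowest of the 10 tretinoin+ICT tumours, as was its sum of general macrophage genes, 2996 CPM.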

How the results depend on the processing

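Of the 7 genes' values under the planned and added settings other than leaving out 1 tumour, 243 kept their direction and side of the threshold, 15 lost a call, 10 gained one and 2 reversed. The reversals were Ccl11 (-0.15) and Mrc1 (-0.063) in tretinoin series 7 alone against PBS. Causes were not tested except where fewer genes or tumours entered the fit by construction. For tretinoin against PBS (3 of the 7 called, 232 genes in all), no low-count filter left 1 of the 7, series 7 alone 0 with 115 genes, series 3 alone gave 393 genes, and leaving out tumours 14 and 33 left 0. For ICT against PBS (4 and 332), no fold change minimum gave 7, and leaving out tumours 14, 63 and 82 gave 2 with 213 genes. For tretinoin+ICT against ICT (2 and 56), no filter left 1, and genes called were 137 with DESeq2, 31 with at least 10 counts in every tumour and 101 with all tumours in one fit. Against tretinoin (4 and 300), no filter left 2 and DESeq2 called 469 genes. Between responders and non-responders (0 and 0), DESeq2 called 2 and 120, and all tumours in one fit 1 gene. The interaction (46 genes) had 84 with DESeq2 and 29 with no filter. Without a fold change minimum, genes called were 2929, 3007, 283 and 3074 in the 4 comparisons of treatments. Leaving out 1 tumour at a time, 1 to 3, 2 to 4, 1 to 3, 2 to 5 and 0 to 2 of the 7 were called in the 5 comparisons of groups, and 153 to 292, 212 to 416, 43 to 123, 208 to 450 and 0 to 205 genes. No paired analysis was possible because the tumours carry no replicate numbers that link groups. Name series as a block changed no call between responders and non-responders. Low counts limit Ccl24, Chil3 and Siglecf in PBS tumours, where the lowest counts were 10, 6 and 19.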

Other observations

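Of the 7 genes listed for neutrophils, 6 were tested for ICT against PBS and 5 were called higher, where 2.28% of all genes tested were. In tretinoin+ICT against tretinoin 4 of 6 were called higher, where 1.87% of all genes were. None of 5 tested was called for tretinoin against PBS, and none of 6 when tretinoin was added to ICT or between responders and non-responders. Over all genes tested, 1.49%, 0.366% and 0% were called higher in these comparisons. With so few genes tested, these counts of 0 lie near those shares. Among them Mmp8, which encodes neutrophil collagenase, had log2 fold changes of 2.10 and 2.08 in the 2 comparisons that added ICT. The summed level of the 7 genes had medians of 339 CPM in PBS, 248 CPM in tretinoin, 470 CPM in ICT and 387 CPM in tretinoin+ICT tumours.

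Of 6 genes of classical macrophage activation, 4 were called higher in ICT than in PBS tumours and 3 in tretinoin+ICT than in tretinoin tumours, against the same 2.28% and 1.87% of all genes. For tretinoin against PBS 1 was called, Ido1 (log2 fold change 2.51), and none was called when tretinoin was added to ICT. Over all genes, 1.49% and 0.366% were called higher in these comparisons. Nos2, which encodes inducible nitric oxide synthase, changed by 3.01 for ICT against PBS (standard error 0.64, edgeR adjusted p=0.00456) and by 2.76 for tretinoin+ICT against tretinoin (standard error 0.60, edgeR adjusted p=0.00605). No gene of mast cells and basophils (4 tested) was called in any comparison, and neither was Adipoq, the 1 gene found of 2 for lung alveolar and adipose tissue. At most 2.28% of all genes were called higher in a comparison, so these counts of 0 do not set such genes apart. Of the mesothelioma genes, Wt1 was called for tretinoin against PBS (log2 fold change 1.12), and 1 of 3 tested was called in each of ICT against PBS and tretinoin+ICT against tretinoin. Over all genes, 1.49%, 2.28% and 1.87% were called higher in these comparisons.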
